A study of Rattus norvegicus with 6 samples.

Results

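The genes described here are 10 early response genes of the Egr, Nr4a, Ier, Btg and Zfp36 families, followed in the rat aorta over the first day of culture. Members were the array rows annotated with exactly 1 gene symbol equal to a listed name, and each measured member had 1 such row. Of the 10 listed genes, 9 were measured among 14324 genes in all. Btg2 had no row annotated with its symbol alone and was not analysed here.

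The aortas came from male Fisher 344 rats aged 1 to 2 months. The day 1 group held 3 arrays of rings that had been embedded in collagen gel and kept in serum-free EBM medium for 1 day. The day 0 group held 3 arrays of rings taken fresh from the animal. Each array carried RNA pooled from 4 to 6 rings or cultures, and the labels do not say whether pools shared animals. Gel, medium and elapsed time differed together between the groups and cannot be told apart. The labels name no genetic change or drug in either group.

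Early response genes are transcribed within minutes of a stimulus, without new protein synthesis, and most of their mRNAs are short-lived. Egr proteins are zinc finger transcription factors that bind GC-rich DNA, and Nr4a proteins are orphan nuclear receptors. In the artery wall, Egr1 is known for its induction in smooth muscle and endothelium after injury, and Nr4a receptors for effects on smooth muscle growth and on macrophages. Zfp36, also called tristetraprolin, binds AU-rich elements of mRNAs and speeds their decay. Ier2 is a nuclear early response protein, and Btg2 restrains proliferation and works with deadenylases.

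Values are log2 expression per array row, for 27342 rows. Array medians lay between 5.87 and 5.89 on day 1 and between 5.91 and 5.95 on day 0. The check of the tissue used 8 smooth muscle markers, among them Cnn1, Tagln and Myh11. Their mean log2 level was 8.24 to 8.37 in day 1 cultures and 11.44 to 11.53 in day 0 rings, and 8 of 8 were lower on day 1. In pooled tissue, fewer cells of a type and less RNA per cell cannot be told apart.

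Most of the early response genes were lower after 1 day of culture. By limma with Benjamini-Hochberg adjustment over all genes, 7 of the 9 measured members fell at an adjusted p of 0.05, and 0 rose. At an unadjusted p under 0.05 the count of rises was also 0, with limma and with an unmoderated unequal-variance test. Over all genes tested, 20.7% were called lower and 27.6% higher. The members that fell were all 3 Nr4a genes, Egr1 and Egr3 of the 4 Egr genes, and Ier2 and Zfp36. Nr4a1 and Egr1 fell at least 2-fold, where 4.11% of all genes did so. The day 1 arrays lay wholly below the day 0 arrays in the same 7 genes, a pattern that 25.5% of all genes showed. The median log2 change of the 9 members was -0.59, against -0.01 for all genes tested. With 3 arrays a group, an exact permutation test of a single gene cannot go below p = 0.1, and each of the 7 genes reached that value.

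**Figure D1:**
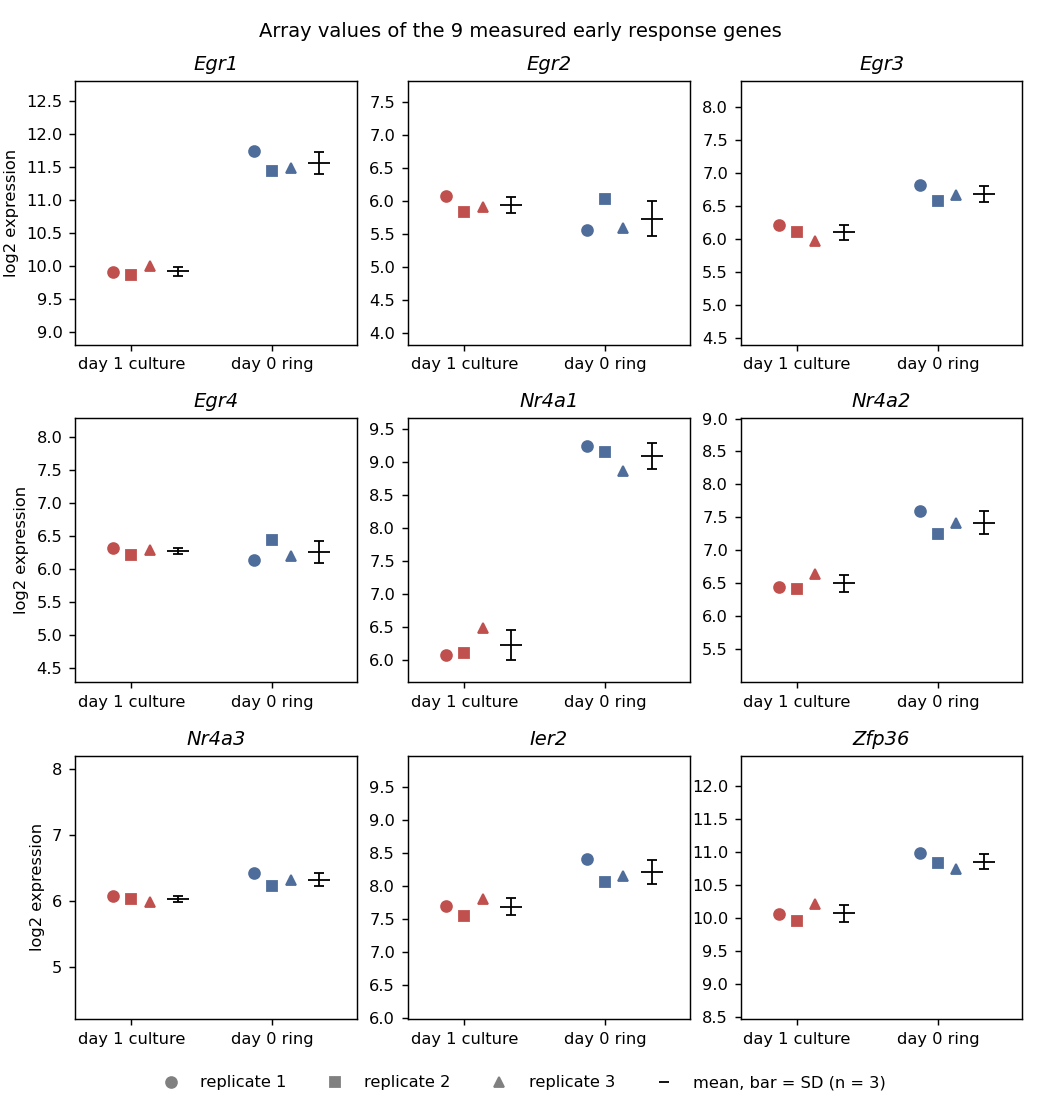
Log2 expression of the 9 measured genes in each of the 3 day 1 cultures (red) and 3 day 0 rings (blue), with the mean and SD beside each group; every panel spans the same height on the log2 axis. Nr4a1 and Egr1 show the widest separation, while the groups overlap for Egr2 and Egr4.

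The Nr4a receptors held the largest difference. Nr4a1, also called Nur77, stood at 6.08, 6.10 and 6.49 in day 1 cultures, against 9.26, 9.17 and 8.87 in day 0 rings. The highest day 1 array lay 2.39 log2 units under the lowest day 0 array. The log2 change was -2.87 ± 0.14 (SE, n = 3 per group), or 7.33-fold lower on day 1 (limma adjusted p = 1.6e-06). The day 1 values were dim, near the array medians, where log2 values can understate a fold change. Ordered from the lowest change upwards, Nr4a1 took place 39 among the 14324 genes.

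Nr4a2, also called Nurr1 and best known from dopamine neurons, fell as well. Nr4a2 stood at 6.44, 6.41 and 6.65 in day 1 cultures, against 7.59, 7.24 and 7.42 in day 0 rings. The groups did not overlap, and the log2 change was -0.92 ± 0.11 (1.89-fold lower, limma adjusted p = 1.88e-04). Nr4a3, also called NOR-1, is known for its induction by growth factors in smooth muscle. Nr4a3 stood at 6.07, 6.02 and 5.98 in day 1 cultures, against 6.42, 6.22 and 6.31 in day 0 rings. Each day 1 array was below each day 0 array, with a gap of 0.16 between the nearest. The log2 change was -0.29 ± 0.07 (1.23-fold lower, limma adjusted p = 0.00886), the smallest fall among the 7 genes.

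The Egr family did not move as 1 group in the measured values. The rows of Egr2, Egr3 and Egr4 were dim, near the array medians, which limits the changes that could be seen in them. Egr1, the best known early factor of the injured artery, stood at 9.90, 9.86 and 9.99 in day 1 cultures, against 11.74, 11.43 and 11.49 in day 0 rings. The groups were 1.44 log2 units apart at their nearest arrays. The log2 change was -1.64 ± 0.09 (3.11-fold lower, limma adjusted p = 3.72e-06), place 256 from the lowest change among the 14324 genes.

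Egr3, a close relative that is often induced together with Egr1, stood at 6.20, 6.11 and 5.97 in day 1 cultures, against 6.81, 6.58 and 6.66 in day 0 rings. The day 1 arrays were all lower, and the log2 change was -0.59 ± 0.09 (1.50-fold lower, limma adjusted p = 8.23e-04). Egr2, also called Krox20 and known for its part in myelination, stood at 6.08, 5.84 and 5.91 in day 1 cultures, against 5.56, 6.04 and 5.60 in day 0 rings. Day 0 replicate 2 lay among the day 1 arrays, so the groups overlapped. Its log2 change of 0.21 missed the threshold (95% interval -0.10 to 0.52, limma adjusted p = 0.235). Without day 0 replicate 2 it was 0.36 (limma adjusted p = 0.0152), and this was the only array whose removal gave Egr2 a call.

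Egr4, the fourth member, stood at 6.31, 6.21 and 6.28 in day 1 cultures, against 6.13, 6.44 and 6.20 in day 0 rings. The highest and the lowest of these values were both day 0 arrays. The log2 change was 0.01 (95% interval -0.19 to 0.22, limma adjusted p = 0.919). The interval leaves out a fall of the row by the amount measured for Egr3, but it covers only the spread between arrays. Because the row is dim, the interval cannot exclude such a fall of the Egr4 transcript.

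Zfp36 and Ier2 fell by smaller amounts. Zfp36 stood at 10.06, 9.94 and 10.20 in day 1 cultures, against 10.98, 10.83 and 10.74 in day 0 rings. The groups were 0.54 log2 units apart, and the log2 change was -0.78 ± 0.09 (1.72-fold lower, limma adjusted p = 1.96e-04). Ier2 stood at 7.70, 7.55 and 7.80 in day 1 cultures, against 8.40, 8.05 and 8.15 in day 0 rings. The groups did not overlap, and the log2 change was -0.52 ± 0.11 (1.44-fold lower, limma adjusted p = 0.00427). By an unmoderated unequal-variance test, Ier2 (adjusted p = 0.0523) and Nr4a3 (adjusted p = 0.0599) missed the threshold, while the other 5 genes kept their calls.

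**Figure D2:**
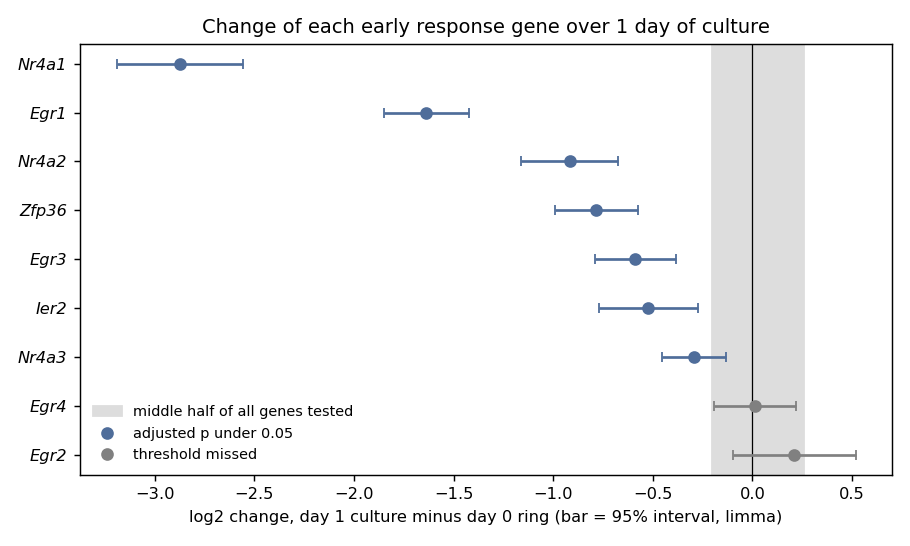
Log2 change (day 1 culture minus day 0 ring) of each measured gene with its 95% interval from limma; the grey band is the interquartile range of all genes tested, from -0.20 to 0.26. Nr4a1 at -2.87 and Egr1 at -1.64 lie farthest from the band, and the intervals of Egr2 and Egr4 span 0.

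The order of the changes placed Nr4a1 first, Egr1 next, and then Nr4a2, Zfp36, Egr3, Ier2 and Nr4a3. The 95% interval of Nr4a1 (-3.19 to -2.56) and that of Egr1 (-1.85 to -1.42) overlapped no other. From Nr4a2 (-1.16 to -0.67) down to Ier2 (-0.77 to -0.27) and Nr4a3 (-0.46 to -0.13), neighbours in the order had overlapping intervals, so the order of adjacent genes there lies within the error. The intervals of Nr4a2 and of Zfp36 (-0.99 to -0.57) lay wholly below that of Nr4a3. Within each array, the ratio of 2 members cancels what the array adds to both. The log2 ratio of Egr1 to Egr2 was 3.82 to 4.09 in day 1 cultures and 5.39 to 6.18 in day 0 rings. That of Egr1 to Egr4 was 3.59 to 3.71 in day 1 cultures and 4.99 to 5.62 in day 0 rings. Both ratios were lower in every day 1 culture than in any day 0 ring. The day difference was -1.05 log2 units for the ratio of Egr1 to Egr3, -1.96 for Nr4a1 to Nr4a2 and -2.58 for Nr4a1 to Nr4a3. In all 5 such comparisons the groups did not overlap, and each had an exact two-sided permutation p of 0.1, the smallest that 3 arrays against 3 allow. Adjusted over the 5 comparisons the value is the same. Each pair set Egr1 or Nr4a1, the genes with the largest falls here, against a relative. The lack of overlap therefore follows in part from the choice of pairs and is no separate support.

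Promoter sequence was set beside these changes for the genes that differed most within the families. RefSeq promoter windows of build GRCr8, from a Brown Norway rat, were found for 8 of the 10 listed genes, Btg2 included, and the 250 bases before the annotated start were searched on both strands. The Nr4a1, Egr1 and Egr2 windows are shown because Nr4a1 and Egr1 had the largest falls, while Egr2 missed the threshold. Capitals mark CArG boxes and the letters CGTCA or the reverse complement TGACG.
Nr4a1 promoter, chr7:134259888-134260137, plus strand: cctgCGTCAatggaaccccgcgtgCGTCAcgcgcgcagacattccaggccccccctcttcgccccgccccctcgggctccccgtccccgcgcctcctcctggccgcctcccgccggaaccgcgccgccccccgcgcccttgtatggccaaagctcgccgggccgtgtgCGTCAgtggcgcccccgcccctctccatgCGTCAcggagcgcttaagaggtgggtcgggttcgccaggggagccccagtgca
Egr1 promoter, chr18:26736828-26737077, plus strand: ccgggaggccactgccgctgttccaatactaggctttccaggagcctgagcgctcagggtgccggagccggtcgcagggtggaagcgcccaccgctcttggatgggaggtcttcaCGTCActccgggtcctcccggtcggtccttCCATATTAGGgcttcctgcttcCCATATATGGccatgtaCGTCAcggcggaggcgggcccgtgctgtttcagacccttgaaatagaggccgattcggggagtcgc
Egr2 promoter, chr20:21054442-21054691, minus strand: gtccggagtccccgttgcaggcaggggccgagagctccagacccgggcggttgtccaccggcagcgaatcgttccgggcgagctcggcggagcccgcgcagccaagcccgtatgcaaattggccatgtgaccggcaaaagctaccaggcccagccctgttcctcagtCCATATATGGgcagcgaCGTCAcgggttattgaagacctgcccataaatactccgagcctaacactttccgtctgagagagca

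A CArG box is the core of the serum response element, which binds serum response factor, and CGTCA is the short form of the cyclic AMP response element, which binds CREB and ATF proteins. The Egr1 window held 2 CArG boxes and 2 CGTCA motifs, and the Egr2 window 1 of each. In both windows a CArG box began 83 bases and a CGTCA motif 66 bases before the start. The Egr1 and Egr2 windows thus share these letters at the same distance but differ in the number of both motifs. Whether these letters bear on the change of either gene was not tested. The Nr4a1 window held 0 CArG boxes and 4 CGTCA motifs. Of the 8 windows 3 held letters that fit the CArG pattern, those of Egr1, Egr2 and Zfp36, against 1.5% of the 33469 windows of the same length. The Zfp36 match began 32 bases before the start, and the letters alone cannot tell whether it is a serum response element. The CGTCA motif stood in 7 of the 8 windows, all but that of Zfp36, against 18.2% of all windows. The 7 include Btg2, which was not measured, and Nr4a2, whose only match began 8 bases before the annotated start. Whether the annotated starts are those used in these samples was not tested. The full palindrome TGACGTCA, which contains the CGTCA motif on each strand, stood in the Ier2 and Btg2 windows and in 1.59% of all. The Egr binding motif GCGNGGGCG stood in the Nr4a1, Btg2 and Zfp36 windows and in 4.29% of all. These matches describe the letters only and show no binding in these samples.

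The same arrays stood highest for several of the genes. In day 0 rings, replicate 1 had the highest value of the 3 arrays for all 7 genes that fell, by 0.10 to 0.20 log2 units over the group mean. For Egr2 and Egr4, replicate 1 had the lowest value and replicate 2 the highest. Over all genes tested, replicate 1 was the highest day 0 array in 38.1%, and over all genes called lower in 41.5%. In day 1 cultures, replicate 3 was the highest array for 5 of the 9 members, namely Nr4a1, Nr4a2, Egr1, Ier2 and Zfp36, and for 29.3% of all genes. In the list of other immediate early genes described next, day 1 replicate 3 was the highest of its group for 24 of 38 genes (63.2%) and day 0 replicate 1 for 21 of 38 (55.3%). Day 1 replicate 3 was also the highest of its group for 15 of 22 reported Egr1 targets (68.2%) and for 16 of 22 reported Zfp36-bound transcripts (72.7%), and for 6 of 16 Nr4a partners and targets (37.5%). Day 0 replicate 1 was the highest for 12 of 22, 11 of 22 and 7 of 16 genes of these lists, in the same order. These lists share genes. Dusp1, Ier3, Myc, Plk3 and Ptgs2 stand in both the immediate early and the Zfp36-bound list. Ccl2, Plau, Tnf and Vegfa stand in both the Egr1 target and the Zfp36-bound list. In 2 further lists given below, day 1 replicate 3 was the highest for 3 of 11 serum response and MAP kinase inputs (27.3%). It was the highest for 4 of 12 Btg, Tob and deadenylase genes (33.3%). Day 0 replicate 1 was the highest for 7 of 11 (63.6%) and 5 of 12 (41.7%) of these genes. The high place of these arrays thus appeared in some related lists and not in others, and the counts of the lists are not separate. Without day 0 replicate 1 the 7 falls kept their calls, with log2 changes of -2.79 for Nr4a1 and -1.54 for Egr1.

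**Figure D3:**
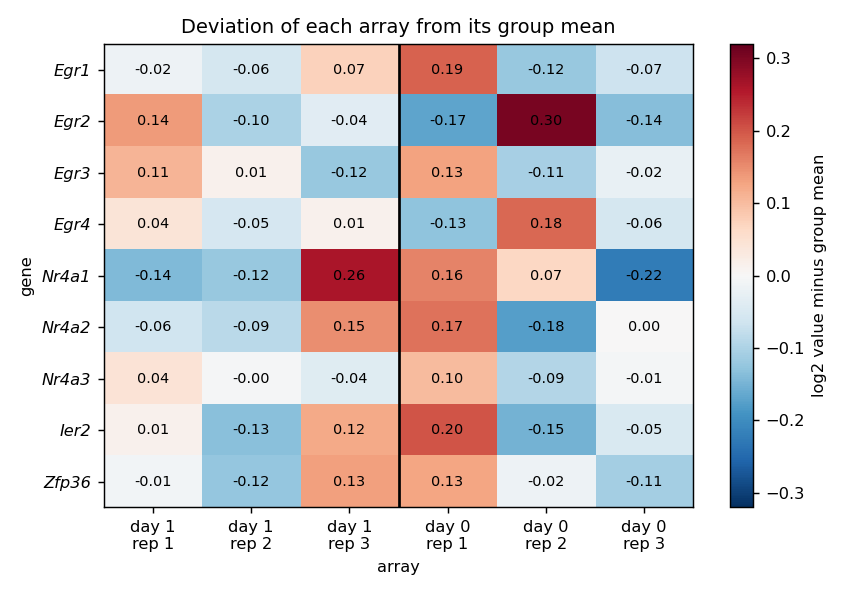
Deviation of each array from the mean of its own group in log2 units, with genes in rows, day 1 cultures in the left columns and day 0 rings in the right columns. Day 0 replicate 1 is above its group mean for all 7 genes that fell and below it for Egr2 and Egr4.

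Other immediate early genes went both ways. Of 38 measured genes of a list of 40, 19 fell and 13 rose, with a median log2 change of -0.16. For this and the lists and markers below, the shares over all genes tested were 20.7% lower and 27.6% higher. Fos, a subunit of the AP-1 factor, was at -4.05 ± 0.15 (limma adjusted p = 4.45e-07), and the MAP kinase phosphatase gene Dusp1 at -3.84 ± 0.08 (limma adjusted p = 4.78e-08). The matricellular gene Ccn1 was at -3.48 ± 0.10 and the stress factor gene Atf3 at -2.54 ± 0.06. Against this direction, Myc, a driver of cell growth, rose by 2.41 ± 0.17 (limma adjusted p = 1.16e-05). Nr4a1 and Egr1 thus stood with the genes of the list that fell at least 2-fold, of which there were 10, while 8 genes of the list rose at least 2-fold. Falls of at least 2-fold made up 4.11% of all genes, and the share of such rises was not counted.

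Upstream of these genes, 11 of 18 listed serum response, CREB and MAP kinase genes were measured. Of these 3 fell and 6 rose, where 20.7% of all genes tested fell and 27.6% rose. Srf, which encodes serum response factor, stood at 8.36, 8.27 and 8.34 in day 1 cultures, against 9.79, 9.67 and 9.64 in day 0 rings. The groups were far apart, with a log2 change of -1.38 ± 0.07 (limma adjusted p = 1.57e-06). Srf also serves the contractile genes of smooth muscle, whose markers fell as given above, and the part of that shift in the early response genes was not tested. The kinase gene Map2k1, which encodes MEK1, rose by 1.18 ± 0.06. Atf1, of the CREB family, rose by 0.52 ± 0.07 and the SRF partner gene Elk4 by 0.49 ± 0.06. The CREB genes of the list did not move together. Creb1 was at -0.30 ± 0.07 (limma adjusted p = 0.00931) and Crtc1 at -0.22 ± 0.06 (limma adjusted p = 0.0199), both called lower. Crtc2 rose by 0.26 ± 0.07, and Crem missed the threshold.

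Both corepressors that bind Egr proteins were measured, and they went opposite ways. Nab2, itself known as an Egr1 target, stood at 8.20, 7.89 and 8.04 in day 1 cultures, against 7.85, 7.48 and 7.56 in day 0 rings. It rose by 0.41 ± 0.12 (limma adjusted p = 0.0189), with a narrow gap between the groups. The call was lost without day 0 replicate 2 or 3 and without day 1 replicate 1 or 3, with limma adjusted p-values of 0.0516 to 0.0635, and by the unmoderated unequal-variance test (adjusted p = 0.101). Nab1 fell by 0.31 ± 0.06 (limma adjusted p = 0.00366).

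Genes reported elsewhere as Egr1 targets in vessel wall cells were mostly higher on day 1, while Egr1 itself was lower. Of 25 listed, 22 were measured, 16 rose and 3 fell, with a median log2 change of 0.92. Cd44, a hyaluronan receptor, rose by 2.54 ± 0.06, and Timp1, an inhibitor of metalloproteinases, by 2.40 ± 0.07. Ccl2, which attracts monocytes, and Plau, which encodes urokinase, rose by 3.90 ± 0.16 and 2.92 ± 0.09. The growth factor gene Igf2 was at -0.90 ± 0.09. Among 16 measured of 18 Nr4a partners and reported targets, 10 rose and 3 fell, with a median of 0.66. The replication gene Mcm7 rose by 1.93 ± 0.09 and the cyclin gene Ccnd1 by 1.86 ± 0.07, and the muscle enolase gene Eno3 was at -2.43 ± 0.08. Plau, Pdgfa and Vcam1 stand in both lists. The lists were drawn from general knowledge but chosen with earlier results of these data known, and many other factors act on their genes.

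Zfp36 has relatives that bind the same AU-rich elements, and they differed in direction. Zfp36l1 fell by 0.62 ± 0.10 (limma adjusted p = 0.00125), and Zfp36l2 rose by 1.35 ± 0.07 (limma adjusted p = 2.54e-06). Zfp36l2 stood at 10.30, 10.21 and 10.28 in day 1 cultures, against 9.02, 8.82 and 8.92 in day 0 rings, with no overlap. Of 23 transcripts reported as bound by Zfp36, 22 were measured, 13 rose and 3 fell, with a median log2 change of 0.75. Il6, an inflammatory cytokine of this list, stood at 5.71, 5.65 and 7.38 in day 1 cultures, against 3.18, 3.44 and 3.24 in day 0 rings. It rose by 2.96 ± 0.42 (limma adjusted p = 5.84e-04), and by 2.39 without day 1 replicate 3, which stood well above the others. By the unmoderated unequal-variance test Il6 missed the threshold (adjusted p = 0.0789). Dusp1 is in this list too, and it fell as given above.

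In a list of 12 genes that joins the Btg and Tob relatives of Btg2 with subunits of the deadenylase complex, 12 were measured, 5 rose and 1 fell. Among all genes tested, 27.6% rose and 20.7% fell. Among the Btg and Tob genes, Btg3 and Btg1 rose by 0.56 ± 0.06 and 0.35 ± 0.06, and Tob1, an antiproliferative relative, was at -0.97 ± 0.06 (limma adjusted p = 7.76e-06). The other rises were those of the deadenylase subunit genes Cnot1, Cnot3 and Cnot6, with Cnot3 at 0.40 ± 0.07.

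**Figure D4:**
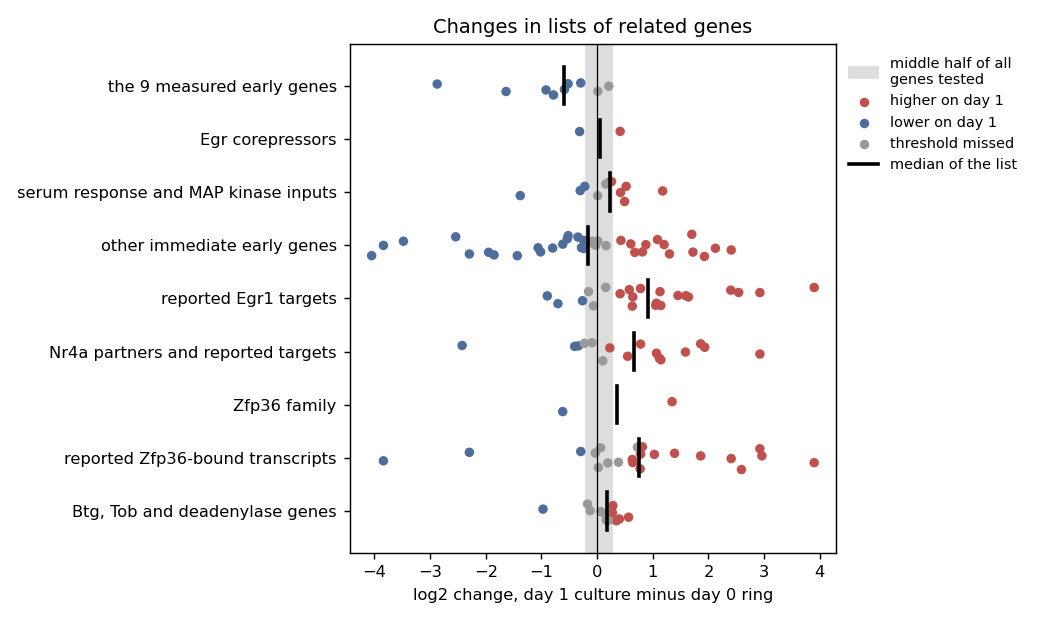
Log2 change (day 1 culture minus day 0 ring) of each measured gene, 1 point per gene, in the 9 early response genes and in 8 lists of related genes; colour gives the limma call and the black bar the median. The early response genes lie mostly left of 0 with a median of -0.59, and the reported Egr1 targets mostly right of 0 with a median of 0.92.

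Markers of other cell types were read in the same arrays, since leukocytes and endothelium also express early response genes. Neutrophil markers were dim in both groups, with mean log2 levels of 4.11 to 4.21 in day 1 cultures and 4.25 to 4.37 in day 0 rings, and 0 of 8 passed the adjusted threshold by limma or by the unmoderated test. At an unadjusted p under 0.05, limma had 2 of them lower and 0 higher, and the unmoderated test 0. Lymphocyte markers averaged 4.14 to 4.31 in day 1 cultures and 4.29 to 4.40 in day 0 rings, with 1 of 6 lower, namely Cd2. Macrophage markers averaged 8.79 to 8.95 in day 1 cultures and 8.47 to 8.58 in day 0 rings, with 3 of 9 higher and 2 lower. Of 6 measured endothelial markers 5 were higher and 1 lower, at 8.12 to 8.27 in day 1 cultures and 7.73 to 7.94 in day 0 rings. Fibroblast markers were higher in 3 and lower in 4 of 7, at 10.73 to 10.80 in day 1 cultures and 10.87 to 10.97 in day 0 rings. Adipocyte markers were lower in 5 of 6, at 5.78 to 5.95 in day 1 cultures and 6.44 to 6.59 in day 0 rings. No marker row was listed at 0, and the part of these shifts in the early response genes was not tested. Beside the marker counts, 27.6% of all genes tested were called higher and 20.7% lower.

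Genes whose profile over the 6 arrays was closest to a member were found by Euclidean distance between log2 values, each gene centred on its own mean. Nearest to Egr1 were Lgi2 (distance 0.13), the alkaline phosphatase gene Alpl (0.13), the kinase anchor gene Akap12 (0.16), the calcium channel subunit gene Cacnb4 (0.18) and the potassium channel subunit gene Kcne4 (0.18). Their log2 changes ran from -1.68 to -1.60. Nearest to Nr4a1 were Lrrtm3 (0.39), the integrin gene Itga11 (0.40), the sarcomere gene Myom1 (0.40), Rasl11b (0.40) and the secreted Wnt inhibitor gene Sfrp2 (0.41). Their log2 changes ran from -3.04 to -2.64. Changes near those of Egr1 and Nr4a1 follow from a search over the same 6 arrays and are no separate result. Neither list held another of the early response genes named here, since members were left out of the search, nor a gene of the immediate early list.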

How the data were processed

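The deposited table holds log2 expression values. Their scale was inferred from a range that reaches 14.16, and limma is the only tool in the submitters' processing notes. Background correction, normalization between arrays and summarisation of probes were steps not given in the sources used here. Per the labels' protocols, 200 ng of total RNA per array went through the whole-transcript sense labelling of Affymetrix.

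Rows were named through the array annotation, and symbols were brought up to date by gene ID or accession with RefSeq names of GRCr8. Of all rows, 15097 had 1 symbol, 323 several and 11922 none. Keeping the row with the highest mean per gene gave 14324 genes, which were not rescaled. The fit was limma 3.58.1 (lmFit, eBayes; R 4.3.3), two-sided, with Benjamini-Hochberg adjustment over every gene tested. A call means an adjusted p under 0.05. The fit was tested on simulated data. Tables and figures were made in Python 3.11.15 (pandas 2.3.3, numpy 2.4.6, matplotlib 3.10.9). The labels do not tell whether pools are separate animals, so a p-value covers only the spread between pools. The number of arrays limits the precision, and log2 values understate the fold changes of dim rows.

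All measured members are named. Of each related list, up to 4 called genes with the largest absolute change are named, with the largest change against the majority, and so are the 5 genes nearest in profile to Egr1 and to Nr4a1. Genes named only for an overlap, as markers or to give other genes of a list fall outside this rule. Members and lists were chosen with earlier results of these data known. Alternatives were 2 normalizations, 2 filters on dim genes, 2 rules for rows, every row as a feature, 3 variance models, a replicate block, and leaving out each array in turn.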

Additional observations from a re-analysis of the deposited data

How the results depend on the processing

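Over 17 alternative settings the falls of Nr4a1 (log2 change -3.00 to -2.79), Egr1 (-1.77 to -1.54), Nr4a2 (-1.01 to -0.83) and Zfp36 (-0.89 to -0.72) kept their direction and their call. Egr3 did so in all 16 settings that tested it (-0.64 to -0.52). The unmoderated unequal-variance test left 5 of the 7 falls, without Ier2 and Nr4a3, and ended the calls of Nab2 (0.41, adjusted p = 0.101) and Il6 (2.96, adjusted p = 0.0789). Without genes under the median mean, Egr2, Egr3, Egr4 and Nr4a3 were not tested, and 5 falls were called. With arrays left out in turn, 7 members were called lower each time and 0 to 1 higher, and 1 to 2 of the Egr corepressors passed. Of all genes, 2968 were called lower, against 1844 without genes under the median mean, 1932 by the unmoderated test and 4483 with every row as a feature. The reported Zfp36-bound transcripts had 16 calls, and 10 without genes under the median mean, where fewer were tested. The Egr corepressors had 1 call by the unmoderated test. Same-numbered arrays of the groups deviated together little (r = 0.01, 0.02 and 0.04 over genes), and so did arrays of different number (r = -0.05 to 0.04). These values cannot tell whether same-numbered pools shared animals or handling. With the replicate block 7 members were called lower and 0 higher, 2871 of all genes were lower and 3815 higher, and no member changed its call. Egr4 changed sign when single arrays were left out (-0.05 to 0.11) and was called in 0 of 16 settings. Dim rows such as those of Egr2, Egr3, Egr4 and Nr4a3, near the array medians, limit what could be seen there. The day 1 values of Nr4a1 were dim as well.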
